A study of Mus musculus with 6 samples.

Results

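NRF2-linked glutathione and antioxidant genes were described across 6 pools of mouse colonic mucosa. The 10 genes were Gpx2, Gsta3, Srxn1, Nqo1, Hmox1, Gclc, Gclm, Txnrd1, Prdx1 and Gsr, taken as every probe whose single gene symbol was one of these names. They had 14 probes among the 29943 probes with 1 symbol, and were 10 of the 17698 genes so named. Of the 10 genes, 9 were above background on at least 1 array and entered the fit over all genes. The remaining gene, Gclc, was above background on no array.

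The tissue, taken from FVB/N6 mice aged 8 weeks, was colonic mucosa, and it was measured on Illumina bead arrays with RNA of 5 mice pooled for each array. The Foxo4 knockout (Foxo4_KO) groups were 1 untreated pool, 1 pool taken 2 days after a 50% ethanol enema and 1 pool taken 2 days after an enema of trinitrobenzene sulfonic acid (TNBS, labelled 250 mg with no quantity that it refers to) in 50% ethanol. The wild-type (WT) groups were 1 pool of each of the same kinds. The TNBS pools therefore also received ethanol, and the labels do not say how the Foxo4 allele was made or whether it was limited to any cell type. TNBS is a hapten that reacts with proteins and provokes colitis in rodents when ethanol has breached the mucosal barrier.

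NRF2, encoded by Nfe2l2, is a transcription factor that is held at a low level by KEAP1, which directs it to degradation in resting cells. Electrophiles and oxidants modify cysteines of KEAP1, and NRF2 then accumulates and, with a small MAF partner, binds antioxidant response elements near genes for glutathione synthesis, peroxide removal and detoxification. In the gut, these enzymes act in an epithelium that is exposed to dietary electrophiles, bacterial products and oxidants released by inflammatory cells. Foxo4 encodes a forkhead transcription factor that growth factor signalling keeps out of the nucleus.

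With 1 pool in each group no comparison had replicates in the strict sense. Differences between single pools are therefore given as values without a test, and the tests come from an additive model of genotype and treatment in limma over all 6 pools, so that a genotype is judged over its 3 treatments and a treatment over its 2 genotypes. All levels are log2 signals after background correction and quantile normalization, and a difference of 1 is a 2-fold difference. Mean signal per array was between 224 and 276, and 11174 to 14356 probes were detected (detection p under 0.01). Both were highest on the array of the Foxo4_KO TNBS pool. Precision is limited by having 6 arrays. The single Foxo4 probe, at 4.59, 4.70 and 4.42 in the Foxo4_KO pools (untreated, ethanol, TNBS) and 4.75, 4.64 and 4.59 in the WT pools, was above background nowhere, and the genotype labels could not be checked with it. The epithelial markers Lgals4 and Cldn3 and the goblet cell mucin Muc2 were above background in every pool, as the tissue label has it. The Foxo4_KO TNBS pool stood apart from the rest: its correlations with the other pools over all genes tested were 0.948 to 0.97, against 0.974 to 0.986 for the remaining pairs. Xist, the RNA of the inactive X chromosome, had log2 signals of 10.36, 5.56 and 7.51 in the Foxo4_KO pools (untreated, ethanol, TNBS) and 9.85, 5.64 and 5.51 in the WT pools, so a difference between enema and untreated pools cannot be told apart from the sex makeup of the pools.

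The sequences before the start sites are shown for 5 members that represent the different patterns described after them: Gpx2 and Gsta3, which stood higher in every enema pool, Nqo1, which was lowest in the TNBS pools, and Prdx1 and Srxn1, which were nearly level. Each is the 250 bases before a start site of the RefSeq promoter table of build GRCm38.p6, written 5′ to 3′ on the strand of the gene. For Gsta3 that start site lies inside the RefSeq gene model, which begins at chr1:21240565, so the last bases of its stretch belong to the gene model. Capitals mark matches on either strand to the core of the antioxidant response element, searched as TGACNNNGC and as its form TGAGNNNGC.
Gpx2: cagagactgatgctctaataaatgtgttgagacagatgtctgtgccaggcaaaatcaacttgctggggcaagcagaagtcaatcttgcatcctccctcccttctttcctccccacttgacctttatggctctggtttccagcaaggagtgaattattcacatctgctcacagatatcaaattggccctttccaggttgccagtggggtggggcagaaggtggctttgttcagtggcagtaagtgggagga
Gsta3: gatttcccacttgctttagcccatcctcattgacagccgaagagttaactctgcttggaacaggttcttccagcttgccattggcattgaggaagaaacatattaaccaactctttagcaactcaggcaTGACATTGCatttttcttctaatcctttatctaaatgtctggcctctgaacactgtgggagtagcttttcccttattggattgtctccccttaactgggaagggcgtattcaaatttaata
Nqo1: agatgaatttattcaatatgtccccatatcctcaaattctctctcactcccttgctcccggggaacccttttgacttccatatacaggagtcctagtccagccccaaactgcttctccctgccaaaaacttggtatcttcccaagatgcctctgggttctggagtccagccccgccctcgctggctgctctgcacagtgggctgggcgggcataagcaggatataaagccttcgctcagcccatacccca
Prdx1: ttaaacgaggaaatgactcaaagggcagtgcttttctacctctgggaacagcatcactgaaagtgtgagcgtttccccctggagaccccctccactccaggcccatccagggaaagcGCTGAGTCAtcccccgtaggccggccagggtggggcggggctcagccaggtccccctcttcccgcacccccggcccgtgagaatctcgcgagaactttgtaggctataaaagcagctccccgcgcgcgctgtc
Srxn1: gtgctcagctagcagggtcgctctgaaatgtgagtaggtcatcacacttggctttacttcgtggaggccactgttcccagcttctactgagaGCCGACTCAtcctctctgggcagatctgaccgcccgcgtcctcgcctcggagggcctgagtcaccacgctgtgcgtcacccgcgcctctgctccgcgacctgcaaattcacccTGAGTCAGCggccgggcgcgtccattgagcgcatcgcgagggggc

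These stretches lie at chr12:76795555-76795804 (minus strand) for Gpx2, chr1:21240335-21240584 (plus strand) for Gsta3, chr8:107403206-107403455 (minus strand) for Nqo1, chr4:116685349-116685598 (plus strand) for Prdx1 and chr2:152105274-152105523 (plus strand) for Srxn1. Distances are counted from the start sites of the promoter table. The Gsta3 match begins 121 bases before the start on the strand of the gene, and the Prdx1 match begins 133 bases before it on the opposite strand. Srxn1 held a match 158 bases before the start on the opposite strand and another 45 bases before it on the strand of the gene. The second of these and the Prdx1 match also hold TGANTCA, letters that AP-1 is known to bind. Gpx2 and Nqo1 held no match in these windows, which says only that the letters are not there.

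The search ran over whole windows of 300 bases, from 250 before to 50 after each start, and 7 of the 10 members had a window in the table. The windows of Hmox1, Gclc and Gsr were not used here. The form TGACNNNGC was found for 5 of the 7 (Gsta3, Srxn1, Gclm, Txnrd1 and Prdx1), against 14% of the 27025 genes with a window, and TGAGNNNGC for 2 of the 7 (Srxn1 and Prdx1), against 19.8%. The AP-1 letters TGANTCA were found for the same 2 members, against 8.97% of genes. The forkhead letters TGTTTAC were found for 0 of the 7, against 4.05%. A gene was counted where any of its windows held the letters. Txnrd1 had several windows, and only the one starting at chr10:82858956 held the match. The members were chosen as NRF2-linked genes, so a share above that of all genes is no independent support. A match is a description of the letters and not evidence of binding.

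Of the 9 members tested none passed the test in any of the 4 contrasts, at a Benjamini-Hochberg adjusted p under 0.05 over the 8940 genes tested. Over all genes limma called 0.134% for Foxo4_KO minus WT, 0.0% for ethanol minus untreated, 0.179% for TNBS minus ethanol and 0.347% for TNBS minus untreated, and a count of 0 of 9 members is near that background. For ethanol minus untreated, where limma called 0 genes, 371 genes had an unadjusted p under 0.05. The values therefore describe 6 pools, and what follows gives the level in each pool before the fitted difference.

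**Figure D1:**
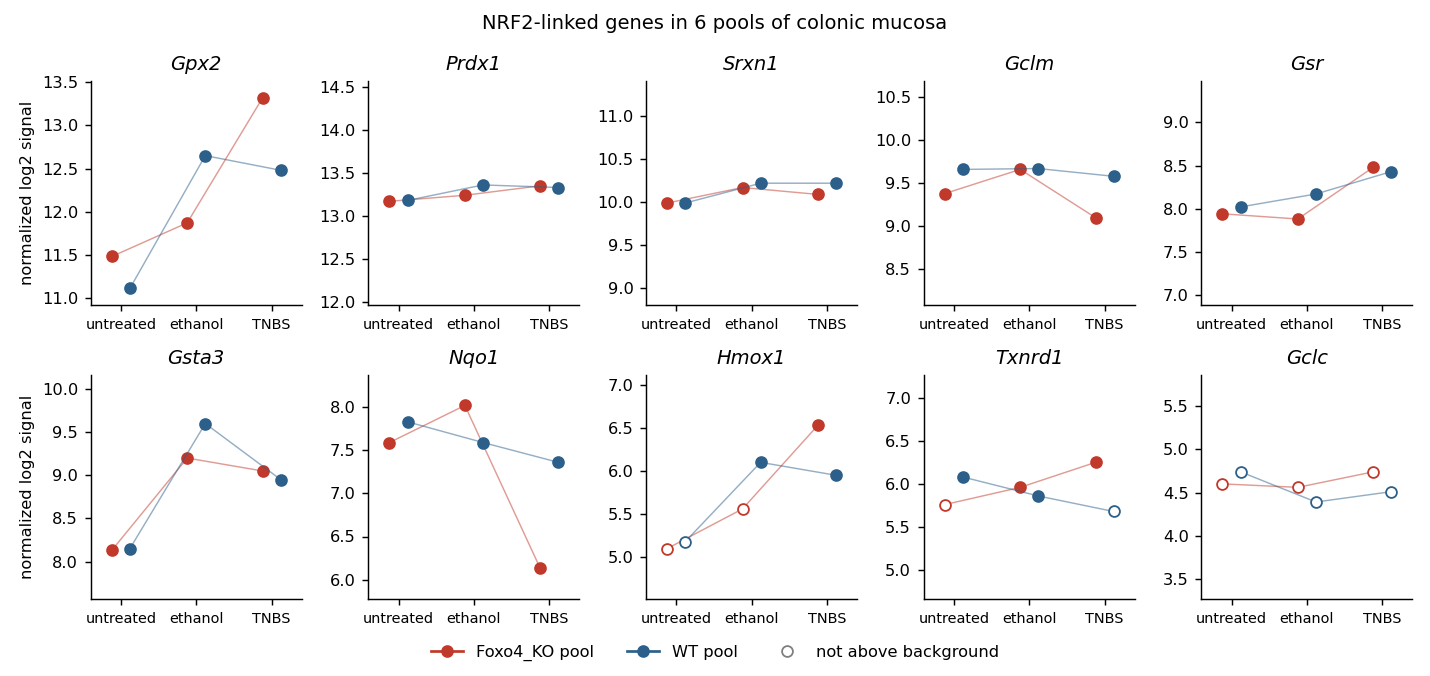
Normalized log2 signal (y axis, each panel spanning 2.6 log2 units) of the 10 genes in the untreated, ethanol and TNBS pools (x axis), with 1 point for each pool, Foxo4_KO in red and WT in blue, and open points where the probe was not above background. Gpx2 reached 13.32 and Nqo1 was at 6.13, its lowest, in the Foxo4_KO TNBS pool, while Prdx1 and Srxn1 were nearly level.

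Glutathione synthesis depends on glutamate-cysteine ligase, whose catalytic subunit is encoded by Gclc and whose modifier subunit is encoded by Gclm. The Gclc probe had detection p between 0.159 and 0.971 over the 6 arrays, so its level was not measured. Gclm had log2 signals of 9.38, 9.66 and 9.10 in the Foxo4_KO pools (untreated, ethanol, TNBS) and 9.66, 9.67 and 9.58 in the WT pools. It was the only member lower in the Foxo4_KO pool of all 3 pairs, an order that 18.7% of all genes showed, and the WT pools hardly differed among themselves. The ethanol pair was nearly equal. The fitted difference between Foxo4_KO and WT was -0.26 (SE 0.146, limma adjusted p = 0.628), and the TNBS pool of Foxo4_KO mice was the lowest of the 6.

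Gsr encodes glutathione reductase, which returns oxidised glutathione to its reduced form. Its log2 signals were 7.94, 7.88 and 8.48 in the Foxo4_KO pools (untreated, ethanol, TNBS) and 8.02, 8.17 and 8.43 in the WT pools. Both TNBS pools thus lay above the other 4, as for 10% of all genes, and the genotypes overlapped. The fitted TNBS minus ethanol difference was 0.43 (SE 0.166, limma adjusted p = 0.769), and TNBS minus untreated was 0.47 (SE 0.166, limma adjusted p = 0.382).

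Gpx2 encodes the glutathione peroxidase of the gastrointestinal epithelium, a selenoprotein that reduces hydroperoxides with glutathione. Before normalization its bead signal was 2720, 3557 and 11775 in the Foxo4_KO pools (untreated, ethanol, TNBS) and 2265, 6074 and 5653 in the WT pools. On the log2 scale these were 11.48, 11.87 and 13.32 in Foxo4_KO pools and 11.11, 12.65 and 12.48 in WT pools. All 4 enema pools lay above both untreated pools, but the steps differed: the large step came between untreated and ethanol in WT mice and between ethanol and TNBS in Foxo4_KO mice.

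In single pools, the ethanol pool of Foxo4_KO mice was 0.39 above the untreated one on the log2 scale, and that of WT mice 1.55 above it, which is 2.92-fold. With TNBS, Gpx2 was 2.73-fold higher than with ethanol in Foxo4_KO mice (2.53% of detected genes were at least 2-fold higher), while the WT pair differed by -0.17 on the log2 scale. Against the untreated pools the TNBS pools were 3.59-fold higher in Foxo4_KO mice and 2.59-fold higher in WT mice, where 4.19% and 1.91% of detected genes were at least 2-fold higher. The fitted TNBS minus untreated difference was 1.61 (SE 0.377, limma adjusted p = 0.264), the largest of any member in any contrast. With arrays scaled to a common median in place of quantile normalization it passed the test, at 1.71 (SE 0.355, limma adjusted p = 0.0214), where the median gene had itself moved by 0.13. Without the Foxo4_KO TNBS pool it was 1.08. Over all alternatives tried the adjusted p ran between 0.0214 and 0.772. The fitted genotype difference was 0.14 (SE 0.308, limma adjusted p = 0.91), and it turned to -0.21 without either TNBS pool.

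Prdx1 encodes a peroxiredoxin that reduces hydrogen peroxide through a reactive cysteine, and Srxn1 encodes sulfiredoxin, which repairs peroxiredoxins whose cysteine has been over-oxidised. Prdx1 had log2 signals of 13.17, 13.24 and 13.35 in the Foxo4_KO pools (untreated, ethanol, TNBS) and 13.18, 13.36 and 13.33 in the WT pools. The Srxn1 probe used in the fit had 9.99, 10.17 and 10.09 in Foxo4_KO pools and 9.99, 10.22 and 10.22 in WT pools. In both genes all 4 enema pools were above both untreated pools, but by small steps, with a fitted TNBS minus untreated difference of 0.17 for each (SE 0.152 for each, limma adjusted p = 0.722 for Prdx1 and 0.727 for Srxn1).

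The other probes of Srxn1 did not share that order. The first had 7.50, 7.47 and 7.41 in the Foxo4_KO pools (untreated, ethanol, TNBS) and 7.65, 7.37 and 7.68 in the WT pools. The second had 8.60, 8.54 and 8.39 in Foxo4_KO pools and 8.58, 8.46 and 8.65 in WT pools. With the mean of the 3 probes in place of one, the ethanol minus untreated difference of Srxn1 went to -0.01, against 0.21 for the probe used in the fit.

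Txnrd1 encodes thioredoxin reductase, which supplies electrons through thioredoxin to the peroxiredoxins. Its log2 signals were 5.76, 5.96 and 6.25 in the Foxo4_KO pools (untreated, ethanol, TNBS) and 6.08, 5.86 and 5.68 in the WT pools. It was above background on 4 arrays, the exceptions being the Foxo4_KO untreated and WT TNBS pools. No fitted difference of Txnrd1 exceeded 0.12 in size.

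Gsta3 encodes an alpha class glutathione S-transferase, which joins glutathione to electrophiles. Its log2 signals were 8.13, 9.20 and 9.05 in the Foxo4_KO pools (untreated, ethanol, TNBS) and 8.15, 9.60 and 8.95 in the WT pools. The untreated pools were nearly equal, every enema pool lay above them, and in both genotypes the ethanol pool was the highest. The ethanol pool was 2.11-fold above the untreated pool in Foxo4_KO mice and 2.72-fold above it in WT mice. Gsta3 was the only member with a step of this size in both genotypes, where 1.69% and 0.731% of detected genes were at least 2-fold higher in the same comparisons.

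The fitted ethanol minus untreated difference of Gsta3 was 1.26 (SE 0.183, limma adjusted p = 0.555), and over the alternatives tried its adjusted p ran between 0.259 and 0.999. For TNBS minus ethanol the fitted value was -0.40 (SE 0.183, limma adjusted p = 0.779). A second Gsta3 probe was above background nowhere, and probes of alpha class transferases can share targets, so its signal may include a close relative.

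Nqo1 encodes a quinone reductase that is widely used as a readout of NRF2. Its log2 signals were 7.59, 8.02 and 6.13 in the Foxo4_KO pools (untreated, ethanol, TNBS) and 7.83, 7.59 and 7.36 in the WT pools. Before normalization the same pools gave signals of 223, 291 and 125 in Foxo4_KO mice and 262, 217 and 199 in WT mice. Both TNBS pools were below the other 4, as for 7.68% of all genes, and the Foxo4_KO TNBS pool was far below the rest. A second Nqo1 probe was above background nowhere.

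With TNBS, Nqo1 was 3.72-fold lower than with ethanol in Foxo4_KO mice, where 1.61% of detected genes were at least 2-fold lower, and the WT pair differed by -0.23 on the log2 scale. Against the untreated pool of Foxo4_KO mice it was 2.75-fold lower (1.33% of detected genes). Between genotypes, the Foxo4_KO TNBS pool was 2.35-fold below the WT TNBS pool, where 1.23% of detected genes were at least 2-fold lower. The fitted TNBS minus ethanol difference was -1.06 (SE 0.377, limma adjusted p = 0.769), at -0.40 without the Foxo4_KO TNBS pool and -0.48 without the Foxo4_KO ethanol pool, and at -1.73 without the WT TNBS pool and -1.65 without the WT ethanol pool. The size of these steps depended on how background was removed: between the TNBS pools the log2 difference was -1.23 here, -0.88 in the authors' normalized values and -0.43 when the background spread was taken from all rows of the table.

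Hmox1 encodes haem oxygenase 1, the inducible enzyme that breaks down haem. Its log2 signals were 5.10, 5.56 and 6.53 in the Foxo4_KO pools (untreated, ethanol, TNBS) and 5.18, 6.10 and 5.95 in the WT pools. It was above background in the Foxo4_KO TNBS pool and in the WT ethanol and TNBS pools, and not well above background in the other 3. Against the lowest detected signal, Hmox1 was at least 1.62-fold higher with TNBS than without treatment in Foxo4_KO mice and at least 1.31-fold higher in WT mice. These bounds set the mean signal of the brighter pool against the higher of the dimmer probe's own signal and the lowest detected signal on that array. Over both genotypes the TNBS pools were at least 1.46-fold above the untreated ones. The fitted TNBS minus untreated difference was 1.10 (SE 0.278, limma adjusted p = 0.294), and 0.65 without the Foxo4_KO TNBS pool.

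**Figure D2:**
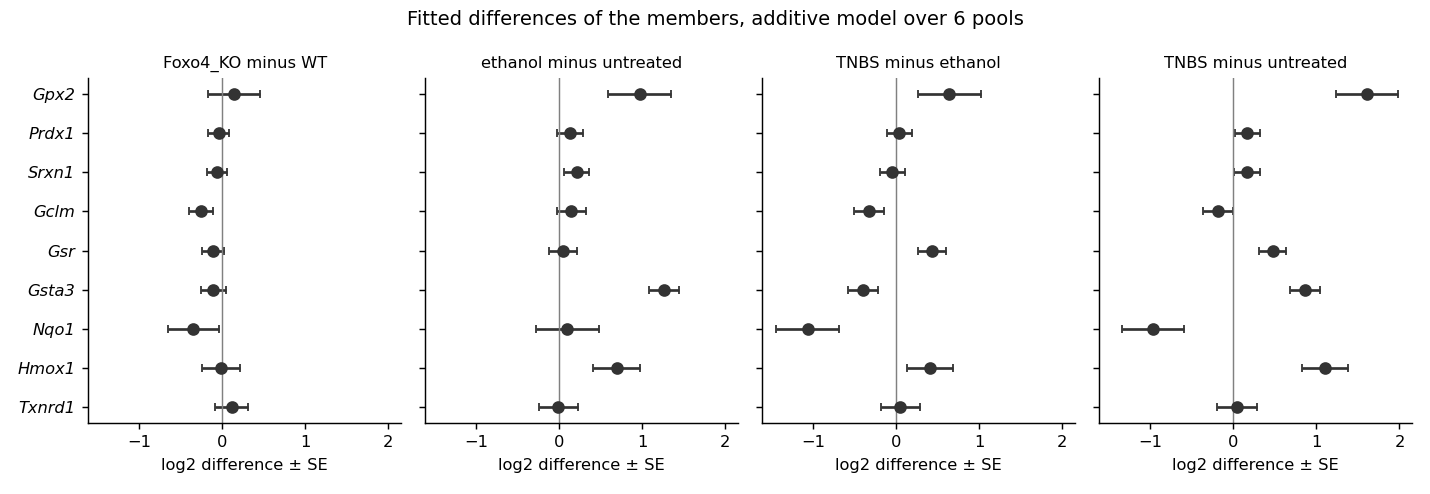
Fitted log2 differences (x axis) of the 9 members tested (rows) in the additive model over 6 pools, 1 panel for each contrast, with bars of 1 standard error. Gpx2, Gsta3 and Hmox1 lay to the right of 0 for ethanol minus untreated and TNBS minus untreated, and Nqo1 lay to the left for TNBS minus ethanol and TNBS minus untreated.

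By the order of the pools, members that stood higher after enemas outnumbered those that stood lower. In 5 of 9 members (Gpx2, Gsta3, Hmox1, Prdx1 and Srxn1) all 4 enema pools were above both untreated pools, against 8.78% of all genes, and in 0 of 9 were all 4 below, against 7.91%. Hmox1 was above background only in enema pools. It thus entered this count, and those at an unadjusted p, through pools in which it was high. Prdx1 and Srxn1 had this order by small steps only, and the other probes of Srxn1 did not share it. The median member differed by 0.15 for ethanol minus untreated and by 0.17 for TNBS minus untreated, where the median gene of the array was at 0.00. At an unadjusted p under 0.05, 3 of 9 members (Gpx2, Gsta3 and Hmox1) were higher for ethanol minus untreated, where 2.21% of all genes were. For TNBS minus untreated 4 members (Gpx2, Gsta3, Hmox1 and Gsr) were higher, where 6.95% of genes were, and Nqo1 was lower, where 4.71% were. These contrasts share pools, and the 2 untreated pools are also those with the highest Xist. The members and the related lists below were chosen with earlier results of these data known. Counts set against the share of all genes, here and below, are therefore description and no independent support for a change of the set.

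Between genotypes the members showed no common direction. For Foxo4_KO minus WT the median member was at -0.06 and the median gene at -0.03, and no member had an unadjusted p under 0.05, where 6.07% of genes were higher and 4.24% lower. Of the 9, 4 (Gpx2, Gsr, Hmox1 and Txnrd1) were at their highest in the Foxo4_KO TNBS pool, as were 26.6% of all genes, and 2 (Gclm and Nqo1) at their lowest, as were 26.1%. None of the 9 was higher in the Foxo4_KO pool of all 3 pairs, an order that 13.3% of genes showed. For TNBS minus ethanol the median member was at 0.04 and the median gene at 0.01, with Gsr higher (3.94% of genes) and Nqo1 lower (2.37% of genes) at an unadjusted p under 0.05.

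The step between ethanol and TNBS ran apart in the genotypes for 3 members. For Gpx2 it was 1.45 in Foxo4_KO pools and -0.17 in WT pools. For Hmox1 it was 0.97 in Foxo4_KO pools, where the ethanol pool was not above background, and -0.15 in WT pools. For Nqo1 it was -1.90 in Foxo4_KO pools and -0.23 in WT pools. Steps at least 2-fold apart were found in 2.45% of genes with the higher value in Foxo4_KO and in 2.54% with the lower one, and 3 of 9 members were among them. In the authors' normalized values the Hmox1 steps were less than 2-fold apart. The step between untreated and ethanol pools differed for Gpx2 as well, at 0.39 in Foxo4_KO and 1.55 in WT. With 1 pool in each group none of these differences between genotypes could be tested. Those between ethanol and TNBS take in the Foxo4_KO TNBS pool, the one that stood apart over all genes and in which Xist was also higher (7.51) than in the Foxo4_KO ethanol pool (5.56) or the WT TNBS pool (5.51), so these steps, and the genotype difference under TNBS, cannot be told apart from the sex makeup of the pools.

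The proteins that control NRF2 were examined next, from a list of 11 regulators of which 10 were tested. None passed the test in any contrast. Nfe2l2 itself had log2 signals of 7.33, 7.28 and 6.82 in the Foxo4_KO pools (untreated, ethanol, TNBS) and 6.96, 7.06 and 7.15 in the WT pools. Keap1 had 9.84, 9.79 and 9.68 in Foxo4_KO pools and 9.53, 9.76 and 9.76 in WT pools. The levels of both overlapped between genotypes and treatments. Bach1, which encodes a repressor that competes with NRF2 at the same elements, had 8.14, 7.84 and 8.79 in Foxo4_KO pools and 8.02, 8.26 and 8.56 in WT pools, so that both TNBS pools were the highest of the 6 (TNBS minus ethanol 0.62, SE 0.21, limma adjusted p = 0.769). Sqstm1, whose protein p62 binds KEAP1, had a TNBS minus ethanol difference of -0.35 (SE 0.19, limma adjusted p = 0.804). Maff, a small MAF partner, had a Foxo4_KO minus WT difference of -0.33 (SE 0.15) and was lower in all 3 pairs.

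Among other glutathione S-transferases, the alpha class and the mu class differed in how they stood in the Foxo4_KO TNBS pool. Of the 19 tested from a list of 22, none passed the test in any contrast, and 12 had their lowest level of the 6 pools in the Foxo4_KO TNBS pool, where 26.1% of all genes did. These 12 included all 7 mu class genes tested (Gstm1 to Gstm7) and all 3 theta class genes (Gstt1, Gstt2 and Gstt3). Gstm6 had log2 signals of 8.37, 8.90 and 7.40 in the Foxo4_KO pools (untreated, ethanol, TNBS) and 8.81, 8.62 and 8.33 in the WT pools. Gstt1 had 7.95, 8.19 and 7.15 in Foxo4_KO pools and 8.11, 8.29 and 8.13 in WT pools. Gstm7 was above background on 1 array only. Gsta1 and Gsta2 stood highest in the Foxo4_KO TNBS pool. Gsta4 did so by a small margin (11.58, against 11.54 in the WT ethanol pool). The member Gsta3, also of the alpha class, did not (9.05, against 9.60 in the WT ethanol pool). Gsta1 had 4.81, 5.03 and 7.36 in Foxo4_KO pools and 5.33, 6.28 and 6.13 in WT pools, and was above background on 3 arrays.

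In single pools, 4 transferases (Gstm1, Gstm3, Gstm6 and Gstt1) were at least 2-fold lower and 2 (Gsta1 and Gsta2) at least 2-fold higher with TNBS than with ethanol in Foxo4_KO mice, of 18 detected. In WT mice the same comparison had 0 of 18 in either direction. Over all detected genes the shares were 2.53% higher and 1.61% lower in Foxo4_KO mice, and 1.27% higher and 0.134% lower in WT mice. The median transferase differed by -0.19 between these pools in Foxo4_KO mice and by -0.05 in WT mice, with the median gene at 0.02 and 0.00. The fitted median for TNBS minus ethanol was -0.18, and with arrays scaled to a common median it went to 0.03 while the median gene went to 0.18, so that the list stayed below the median gene by 0.16. Members of these classes are close in sequence, and their probes may share signal.

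Quinone, carbonyl and drug-reducing enzymes are the functional neighbours of Nqo1, and part of them, though not all, had the same pool at the bottom. Of the 18 tested from a list of 21, none passed the test, and 9 were lowest in the Foxo4_KO TNBS pool, against 26.1% of all genes. Ugt1a6a, a glucuronosyltransferase for phenols, had log2 signals of 8.51, 8.91 and 6.51 in the Foxo4_KO pools (untreated, ethanol, TNBS) and 8.83, 8.46 and 7.91 in the WT pools. Cbr2, a carbonyl reductase, had 9.63, 10.33 and 8.98 in Foxo4_KO pools and 9.73, 10.45 and 10.55 in WT pools. Akr1c12, an aldo-keto reductase, had 11.18, 11.76 and 10.62 in Foxo4_KO pools and 11.66, 11.67 and 11.23 in WT pools. Between ethanol and TNBS, 4 of 18 (Akr1c12, Cbr2, Ugt1a6a and Ugt1a6b) were at least 2-fold lower by their signals in Foxo4_KO mice, Ugt1a6b with its TNBS pool not above background, and 0 of 14 were in WT mice. The fitted median for TNBS minus ethanol was -0.24. With arrays scaled to a common median it was -0.03 while the median gene was at 0.18, and with the background from all rows it was -0.08. Ephx1, which encodes an epoxide hydrolase, had the other large genotype value of this list, at 0.45 (SE 0.18).

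**Figure D3:**
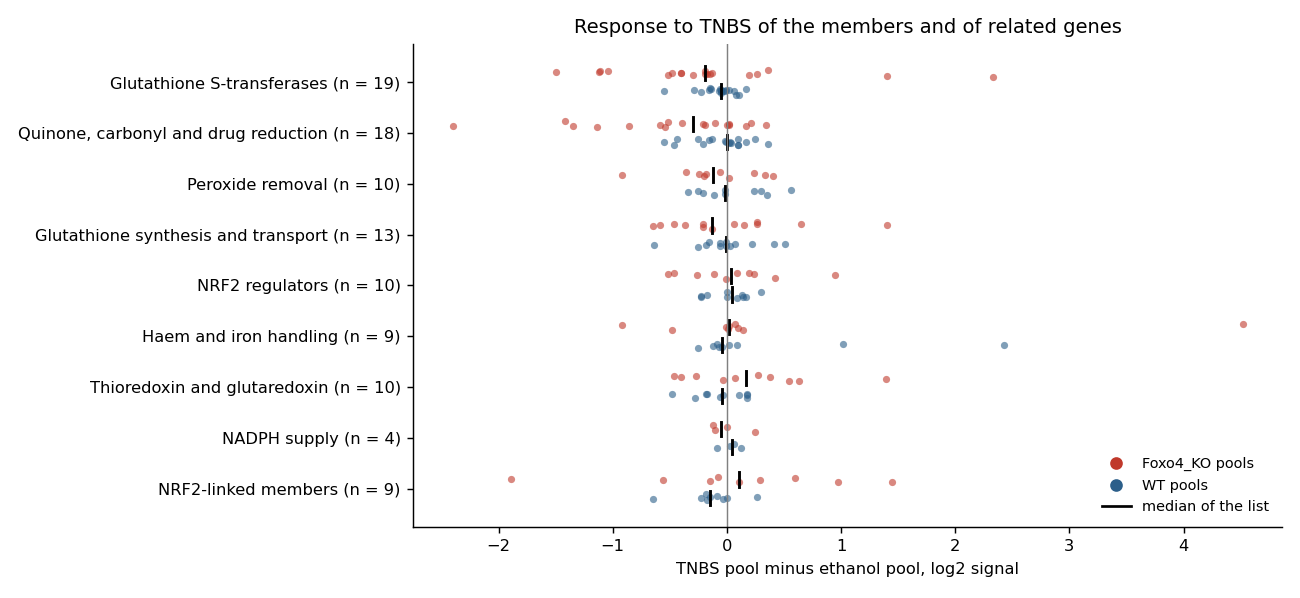
Difference between the TNBS and the ethanol pool (x axis, log2 signal) for each gene of 8 related lists and of the members (rows), with Foxo4_KO pools in red above WT pools in blue and a black bar at the median of the list. In Foxo4_KO pools 4 transferases and 4 drug-reducing enzymes lay at -1 or below, and in WT pools none of either list did.

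In glutathione synthesis and transport, with 13 tested of 17, Chac1, which degrades glutathione, had 5.17, 6.02 and 7.42 in the Foxo4_KO pools (untreated, ethanol, TNBS) and 5.02, 5.38 and 5.89 in the WT pools, and Mthfd2, a mitochondrial folate enzyme, differed by 0.53 for TNBS minus ethanol (SE 0.17, limma adjusted p = 0.769). The ethanol and TNBS pools of Foxo4_KO mice were the only ones in which Chac1 was above background. Other enzymes of peroxide removal, with 10 tested of 16, had a median of 0.32 for ethanol minus untreated, with the median gene at 0.00, and of 0.07 with the background from all rows. Among them Gpx3, the secreted glutathione peroxidase, had 7.97, 8.99 and 9.32 in Foxo4_KO pools and 8.11, 8.21 and 8.77 in WT pools. Gpx8 was above background only in the ethanol and TNBS pools of Foxo4_KO mice. Prdx3, the mitochondrial peroxiredoxin, had 9.28, 9.72 and 8.80 in Foxo4_KO pools and 9.46, 9.83 and 9.58 in WT pools. No gene of either list passed the test.

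Thioredoxin and glutaredoxin genes (10 tested of 13), with a median of 0.18 for TNBS minus ethanol, and NADPH supply genes (4 tested of 9) had no gene past the test. Glrx, a glutaredoxin, differed by 0.41 for TNBS minus ethanol (SE 0.19), and Txnl1 was above background on 1 array only. Tigar, Nnt and Idh1, which serve NADPH supply, had genotype and TNBS minus ethanol values within 0.16 of 0. In haem and iron handling (9 tested of 12), Hp was the one gene that passed the test. Hp encodes haptoglobin, an acute phase protein that binds free haemoglobin. The Hp probe used in the fit had log2 signals of 4.52, 5.54 and 10.06 in the Foxo4_KO pools (untreated, ethanol, TNBS) and 4.57, 6.38 and 8.81 in the WT pools. It was not above background in either untreated pool, and by this probe the TNBS pools were at least 13.3-fold higher. The fitted TNBS minus untreated difference was 4.88 (SE 0.46, limma adjusted p = 0.027), and the call was lost without the Foxo4_KO TNBS pool (adjusted p = 0.177), the WT TNBS pool (0.055), the Foxo4_KO untreated pool (0.282) or the WT untreated pool (0.201). It was also lost with no filter on detection (adjusted p = 0.211) and with the background from all rows (2.70, adjusted p = 0.307). The Hp difference was smaller with the mean of its detected probes (3.25), with the authors' values (3.75) and with an offset of 50 (3.66). Fth1, the ferritin heavy chain and a known NRF2 target, had 12.98, 13.18 and 12.26 in Foxo4_KO pools and 13.61, 13.20 and 13.08 in WT pools. Hebp1, a haem-binding protein, was above background on 3 arrays only and differed by 0.58 for Foxo4_KO minus WT (SE 0.23).

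Genes whose profile over the 6 pools was most like that of a member were looked up for Gpx2, Gsta3 and Nqo1, the members detected on all arrays with a range of at least 1 on the log2 scale. The measure was Pearson's correlation over 6 pools among 682 genes that met the same conditions, and it describes 6 points that share arrays and pools. Gpx2 was most like Cd14 (0.986), an endotoxin co-receptor that was also on the macrophage marker list, and Lrg1 (0.984), a secreted glycoprotein. Lrg1 had 6.55, 7.52 and 10.76 in the Foxo4_KO pools (untreated, ethanol, TNBS) and 6.44, 8.97 and 9.28 in the WT pools. Gsta3 was most like Abcc4 (0.959), an efflux transporter, and Gstp3 (0.933), another glutathione transferase. Nqo1 was most like Tspan3 (0.992), a tetraspanin, and Ugt1a6a (0.992).

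Cell type markers moved with the same pools. Calprotectin and other neutrophil genes, of which 6 of 12 with a probe were tested, summed to unnormalized signals of 406, 427 and 5919 in the Foxo4_KO pools (untreated, ethanol, TNBS) and 375, 686 and 826 in the WT pools, while Mpo, Elane, Cxcr2, Camp, Ngp and Mmp8 were not above background. S100a8, a calprotectin subunit, had log2 signals of 4.54, 4.68 and 11.25 in the Foxo4_KO pools and 4.43, 7.67 and 7.98 in the WT pools. Paneth cell genes, which colon lacks or holds at low levels, summed to 1716, 1454 and 32092 over 6 of 7 genes in Foxo4_KO pools and 480, 1163 and 7964 in WT pools, with Mmp7 not above background. Ileal enterocyte genes summed to 3158, 2741 and 18550 over 10 of 13 in Foxo4_KO pools and 2700, 3068 and 9050 in WT pools, with Fabp2, Slc10a2 and Cyp3a11 not above background. By these sums both TNBS pools held more signal of the Paneth and ileal lists than the other 4, the Foxo4_KO pool the most. In the ileal list 8 of 10 tested genes were higher for TNBS minus untreated, with a list median of 1.33. Mep1a (-0.70) and Alpi (-0.22) were lower. The TNBS pools are those in which Nqo1 was lowest, and the Foxo4_KO one is that in which Gpx2, Gsta1 and Gsta2 were highest. Between the WT ethanol and TNBS pools, Gpx2 went from 12.65 to 12.48, Gsta1 from 6.28 to 6.13, Gsta2 from 7.34 to 7.45 and Nqo1 from 7.59 to 7.36. Whether these levels are linked to the marker signals was not tested.

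Smooth muscle genes summed to 5248, 23546 and 23963 in the Foxo4_KO pools (untreated, ethanol, TNBS) and 5188, 4922 and 10505 in the WT pools, over 10 of 12 genes, with Cnn1 and Lmod1 not above background. Surface colonocyte genes summed to 47223, 42619 and 37312 over 9 of 9 genes in Foxo4_KO pools and 50054, 37507 and 41024 in WT pools. These sums are unnormalized, and the Foxo4_KO TNBS array had the highest mean signal (276). After normalization the median log2 signal of the surface colonocyte list was 12.14, 12.23 and 10.74 in Foxo4_KO pools and 12.02, 11.82 and 11.67 in WT pools. Epithelial genes were within a narrower range, at 37268, 33818 and 41909 over 12 of 14 genes in Foxo4_KO pools and 37130, 34274 and 39837 in WT pools, with Krt8 and Krt20 not above background. The part of these cell types in the members' levels was not tested, and in bulk mucosa fewer cells of a type and less RNA per cell cannot be told apart.

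**Figure D4:**
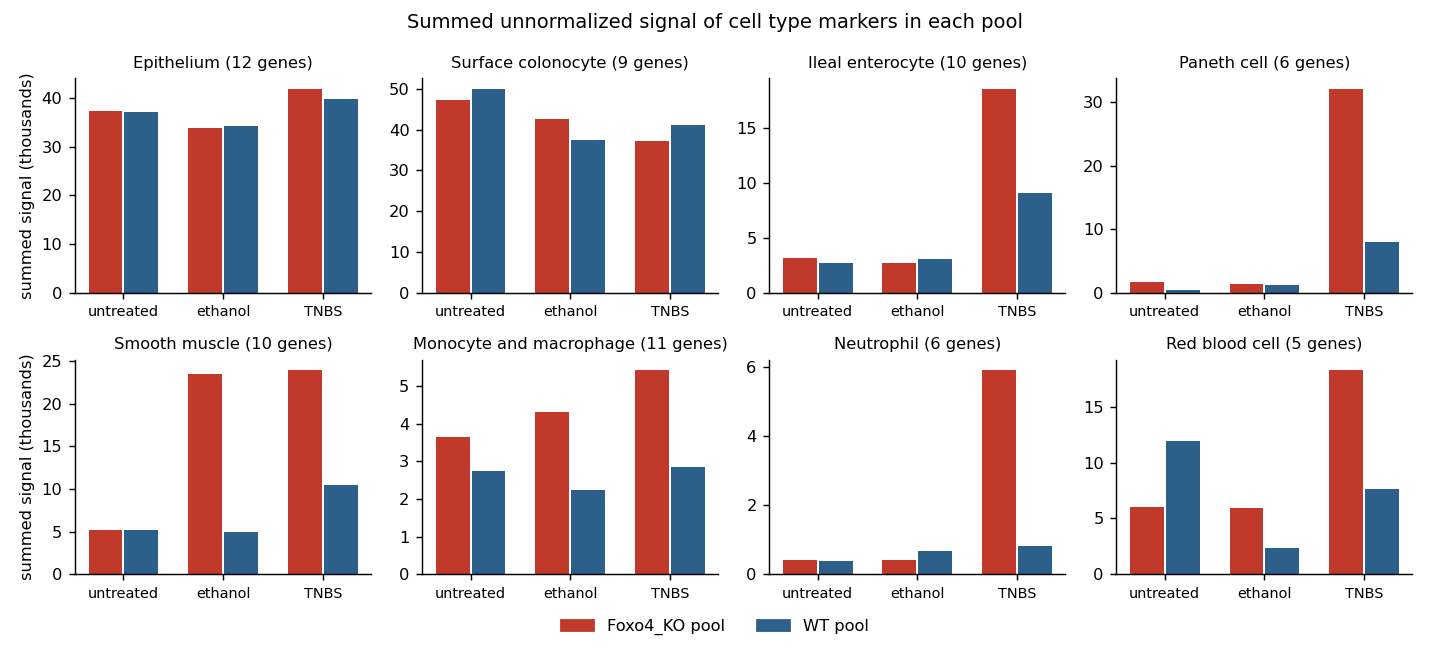
Summed unnormalized signal (y axis, scaled down as its label says) of the tested genes of 8 marker lists in each pool (x axis), with 1 bar for each pool, Foxo4_KO in red left of WT in blue. Neutrophil, Paneth and ileal sums were highest in the Foxo4_KO TNBS pool, and smooth muscle sums were high in both enema pools of Foxo4_KO mice.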

How the data were processed

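RNA of 6 pools was labelled with biotin and hybridised to Illumina arrays, per the labels' protocols, after Trizol extraction, column clean-up and DNase treatment. Bead intensity values without normalization were deposited in a first table, each with a detection p-value per the file headers, which rises with the signal and so was taken as 1 minus p. A second table by the authors names the probes and holds intensity values that have the same distribution on every array, hence quantile normalized. Columns were assigned to samples by the array number in the labels, checked by rank correlation (at least 0.999998 with the own column, at most 0.911 with another). No per-sample column was left unmapped. The tables were joined by the profile of each probe over 6 arrays (46572 of 46632 probes, 99.87%). Of 8595 targets that carry an Entrez number, 7954 matched the probe's number, against 2 after shuffling.

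Background correction and quantile normalization used neqc (limma 3.58.1, R 4.3.3) at an offset of 16, the background being inferred from detection p. A set of 12 control rows, whose scores do not lie on the grid set by 1603 negative controls, was left out of this step. With them the inferred background SD was 107 to 141, in place of 9.82 to 11.7, and dim signals were compressed. Leaving them out was decided after seeing the data, and keeping them in is an added alternative. Probes with 1 symbol and detection p under 0.01 on at least 1 array were kept (11752 probes, 8940 genes), a gene being represented by its brightest probe where it had several, as 2213 did. Another 16619 probes had no symbol and 10 had several.

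The additive model left 2 residual degrees of freedom, with 3.84 prior ones. P-values measure the spread between pools, which holds differences in response between genotypes. On simulated data with 200 changed genes of 8940, genes changed by 1 on the log2 scale were recovered at 63.8% for genotype, 28.3% for ethanol minus untreated and 25.9% for TNBS minus ethanol, and those changed by 3 at 99.4%, 98.6% and 98.8%. False calls were 6.14%, 4.33% and 4.83% of the calls in the same order. The simulated noise was independent between pools and held no differences in response between genotypes, so these rates hold for that setting and may overstate recovery in these pools.

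Members and lists were chosen with earlier results of these data known. Named beside every member were, for each related list, the 2 genes with the largest Foxo4_KO minus WT and the 2 with the largest TNBS minus ethanol value. The 2 genes most like each variable member were also named. Of the 2 brightest genes of each marker list only some are named (Lgals4, Cldn3, Muc2, S100a8 and Xist). Markers not above background are named for the lists whose sums are given. Other genes are named because they complete a count or were chosen after their values were seen (Nfe2l2, Keap1, Gsta2, Gsta4, and those listed by count). Summaries and figures used Python 3.11.15, numpy 2.4.6, pandas 2.3.3 and matplotlib 3.10.9.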

Additional observations from a re-analysis of the deposited data

Results flagged for a closer look

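The step between the ethanol and the TNBS pool ran in opposite directions in the genotypes, and at least 2-fold apart, for 2 members. Txnrd1 (0.29 in Foxo4_KO pools and -0.19 in WT pools) and Prdx1 (0.11 and -0.03 in the same order of genotypes) also had opposite signs, with smaller differences. Gpx2 was higher with TNBS by 1.45 in Foxo4_KO pools and differed by -0.17 in WT pools, a difference between the steps of 1.62 on the log2 scale. Hmox1 was higher by 0.97 in Foxo4_KO pools and differed by -0.15 in WT pools, a difference of 1.13. Its Foxo4_KO ethanol pool was not above background. In the authors' normalized values its signals (ethanol, TNBS) were 88.9 and 134.2 in Foxo4_KO pools and 110.5 and 103.5 in WT pools. By those values the Hmox1 steps were less than 2-fold apart. Each genotype had 1 pool at each treatment, so none of these differences was tested. Summed neutrophil, Paneth and ileal marker signals were also highest in the Foxo4_KO TNBS pool, and their part in these values was not tested.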

How the results depend on the processing

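No paired analysis was possible because every group is 1 pool, so that replicate numbers could form no block. The additive model itself already sets the genotypes against each other within each treatment. Over 14 alternatives, 6 of which leave out 1 pool, no member passed the test, except Gpx2 for TNBS minus untreated with median scaling (1.71, limma adjusted p = 0.0214). The number of genes that limma called moved widely. For Foxo4_KO minus WT it was 12, and 124 with median scaling, 31 with a trended and robust prior, 23 with an offset of 50, 1 with no filter on detection, 0 with the background from all rows and 0 without any one pool. For ethanol minus untreated it was 0, and 3 with median scaling. For TNBS minus ethanol it was 16, and 43 with median scaling, 4 among genes detected on all 6 arrays, 0 with no filter, 1 with the background from all rows and 0 to 12 without one pool. For TNBS minus untreated it was 31, and 122 with median scaling, 13 among genes detected on all 6 arrays, 0 with no filter, 1 with the background from all rows and 0 to 47 without one pool. The 6 differences of members at least 2-fold apart between pools (genotype pairs, ethanol over untreated and TNBS over ethanol) numbered 4 to 7 under the alternatives. Values near 0 changed sign. With median scaling, Foxo4_KO minus WT was 0.01 for Gsta3, 0.03 for Srxn1, 0.15 for Hmox1 and 0.03 for Gsr, where the median gene moved by 0.09, and TNBS minus ethanol was 0.21 for Srxn1, where it moved by 0.18. Hmox1 was at 0.01 for Foxo4_KO minus WT with the authors' values, with an offset of 50 and with the background from all rows. With the mean of its probes, Srxn1 was at -0.01 for ethanol minus untreated and 0.03 for TNBS minus ethanol. Without one pool, Foxo4_KO minus WT ran between -0.21 and 0.61 for Gpx2, -0.21 and 0.04 for Gsta3, -0.74 and 0.10 for Nqo1, -0.31 and 0.25 for Hmox1, and -0.11 and 0.34 for Txnrd1. Ethanol minus untreated ran between -0.49 and 0.68 for Nqo1, -0.04 and 0.33 for Gclm, -0.34 and 0.32 for Txnrd1, and -0.10 and 0.19 for Gsr. TNBS minus ethanol ran between -0.06 and 1.33 for Gpx2, -0.10 and 0.01 for Srxn1, -0.04 and 0.86 for Hmox1, -0.29 and 0.40 for Txnrd1, and -0.02 and 0.10 for Prdx1. TNBS minus untreated ran between -0.30 and 0.39 for Txnrd1. The cause was not tested, save that fewer pools leave fewer residual degrees of freedom. Dim members depend on the background: Hmox1 for TNBS over untreated in Foxo4_KO pools was 1.43, and 0.84 with the authors' values, 0.89 with an offset of 50 and 0.24 with the background from all rows, and Nqo1 for TNBS over ethanol in Foxo4_KO pools was -1.90 and -0.91 with the last of these.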
